A study of Mus musculus with 2 samples.

Results

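The genes described here are 7 matrix metalloproteinases (Mmp2, Mmp3, Mmp9, Mmp12, Mmp13, Mmp14 and Mmp19) and 3 tissue inhibitors of metalloproteinases (Timp1, Timp2 and Timp3). They were chosen by symbol and make up 10 of the 32285 mouse genes measured. Each level is the sum of a gene's unique molecular identifiers (UMIs, each standing for 1 captured RNA molecule) over the cells of 1 class in 1 library, per 1000000 UMIs of all genes in those cells (CPM). Female C57BL/6 mice of 6 to 8 weeks had their peritoneum abraded and were injected intraperitoneally with syngeneic ovarian cancer cells of the genotype p53-/-, myc, Hras. From the day after, they received either control IgG or the Activin A neutralizing antibody by daily intraperitoneal injection, for 10 days per the labels. Activin A is a ligand of the TGF-beta family. Tumor tissue from the abraded site was pooled within a group. The labels give 7 mice with control IgG and 8 with the antibody, whereas the text of the study gives another number, and how many were pooled is uncertain. The title of the second sample names Activin alone and was read, with the design text, as the antibody group, so that the sense of each ratio rests on that reading. Each group was therefore 1 single-cell library, with no replicate. No test between groups was possible, since cells are not replicates. An effect of the antibody and any other difference between the 2 libraries cannot be told apart, and "with control IgG" and "with the antibody" below name the library only.

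Matrix metalloproteinases are zinc proteases that cut collagens, other matrix proteins, growth factors and receptors. They are made as inactive precursors, and most are secreted, while a few stay anchored in the cell membrane. TIMPs bind the active site of these proteases and block them, so RNA levels of protease and inhibitor do not by themselves give the activity. In healing peritoneum and in tumors, fibroblasts and macrophages are known sources of both.

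All values rest on 8770 cells of the control IgG library and 6386 of the antibody library, after droplets outside 1000 to 8500 genes or 1000 to 100000 UMIs, or with over 10% mitochondrial UMIs, were left out. The libraries held 98174850 and 74117462 UMIs, of which 6.39% and 6.23% lay in barcodes with fewer than 100 UMIs, taken here as free RNA. The kept cells of both libraries shared 19 barcodes. Cells were put into 15 classes by gates on marker genes that include none of the 10 genes, and 358 of the 15156 cells passed no gate. The class names are short names of these gates. The monocyte class holds cells with markers such as Csf1r, Adgre1, Ms4a7 and Ccr2 that passed no macrophage, neutrophil or dendritic gate. Fibroblasts (Col1a1, Col3a1, Dcn, Pdgfra and others) numbered 230 in the control IgG library and 250 in the antibody library, cancer cells 309 and 354, C1q macrophages (C1qa, C1qb, C1qc) 1259 and 328, monocytes 532 and 308, and T cells 5354 and 4227. The gates were not clean, since 61 of the 230 and 39 of the 250 fibroblasts also passed the gate of another lineage. The 69 mesothelial cells carried fibroblast marker genes at a median of 131 UMIs per 10000, above their own markers at 19.7.

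A trio of the genes lies in a cluster on chromosome 9, and their promoters are the ones that stand apart by sequence. Mmp13 (chr9:7272514-7283331), Mmp12 (chr9:7344381-7369499) and Mmp3 (chr9:7445822-7455975) are all on the + strand of GRCm38 within 183 kb, in a region with 7 metalloproteinase genes. RefSeq promoter sequence (GRCm38.p6, 250 bases before to 50 after a start) matched 7 of the 10 genes, with 2 starts for Mmp12. Mmp2, Mmp9 and Mmp19 had no entry. Both strands were searched for the AP-1 heptamer TGAGTCA, whose reverse complement is TGACTCA, and the forward strand for the TATA motif TATAAA. The heptamer was in 5.20% of 32851 mouse promoters of this length, TATAAA in 8.32% and both in 0.624%. Both were in the promoters of Mmp13, Mmp3 and the second start of Mmp12. Neither was in those of Mmp14, Timp1, Timp2, Timp3 or the first start of Mmp12. A match of letters is a description and no binding site. The 82 bases from 70 before each start to 12 after it are printed because they hold both motifs, here in capitals, at chr9:7272444-7272525, chr9:7347304-7347385 and chr9:7445752-7445833, all on the + strand.
Mmp13: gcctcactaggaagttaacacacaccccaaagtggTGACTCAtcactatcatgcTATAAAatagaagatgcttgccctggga
Mmp12: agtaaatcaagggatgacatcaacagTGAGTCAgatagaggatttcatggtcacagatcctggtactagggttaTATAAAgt
Mmp3: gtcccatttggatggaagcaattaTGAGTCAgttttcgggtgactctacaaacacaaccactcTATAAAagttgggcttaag
In Mmp13 the motifs lie 12 bases apart, in Mmp3 32 and in the second start of Mmp12 41, where TATAAA begins after the annotated start. Of the 3 genes with these motifs, Mmp3 was nearly confined to fibroblasts and Mmp12 to macrophages and monocytes. Mmp13 gave only 16 and 7 UMIs in all cells of the control IgG and antibody libraries. Of these, 11 and 4 were in C1q macrophages, too few to describe a pattern over the classes.

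The 10 genes divided among the cells of the tumor by class. Mmp2, Mmp3 and Timp3 were highest in cells of the stroma, Mmp12 in macrophages and monocytes, and Mmp9 in cells of the neutrophil lineage. Mmp14, Mmp19, Timp1 and Timp2 were spread over stroma, cancer cells and macrophages. In fibroblasts Timp1 reached 2285 CPM with control IgG (exact Poisson 95% interval 2241 to 2331) and 1904 CPM with the antibody (1859 to 1949). T cells, which serve as the class that should lack these genes, stood at 19.8 and 9.34 CPM of Timp1, while the free RNA held 331 and 359 CPM of it. All intervals here cover counting error only and not the spread between mice or libraries. Neither levels nor UMI sums were divided by transcript length, so that they are compared between classes and libraries and not between genes.

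**Figure D1:**
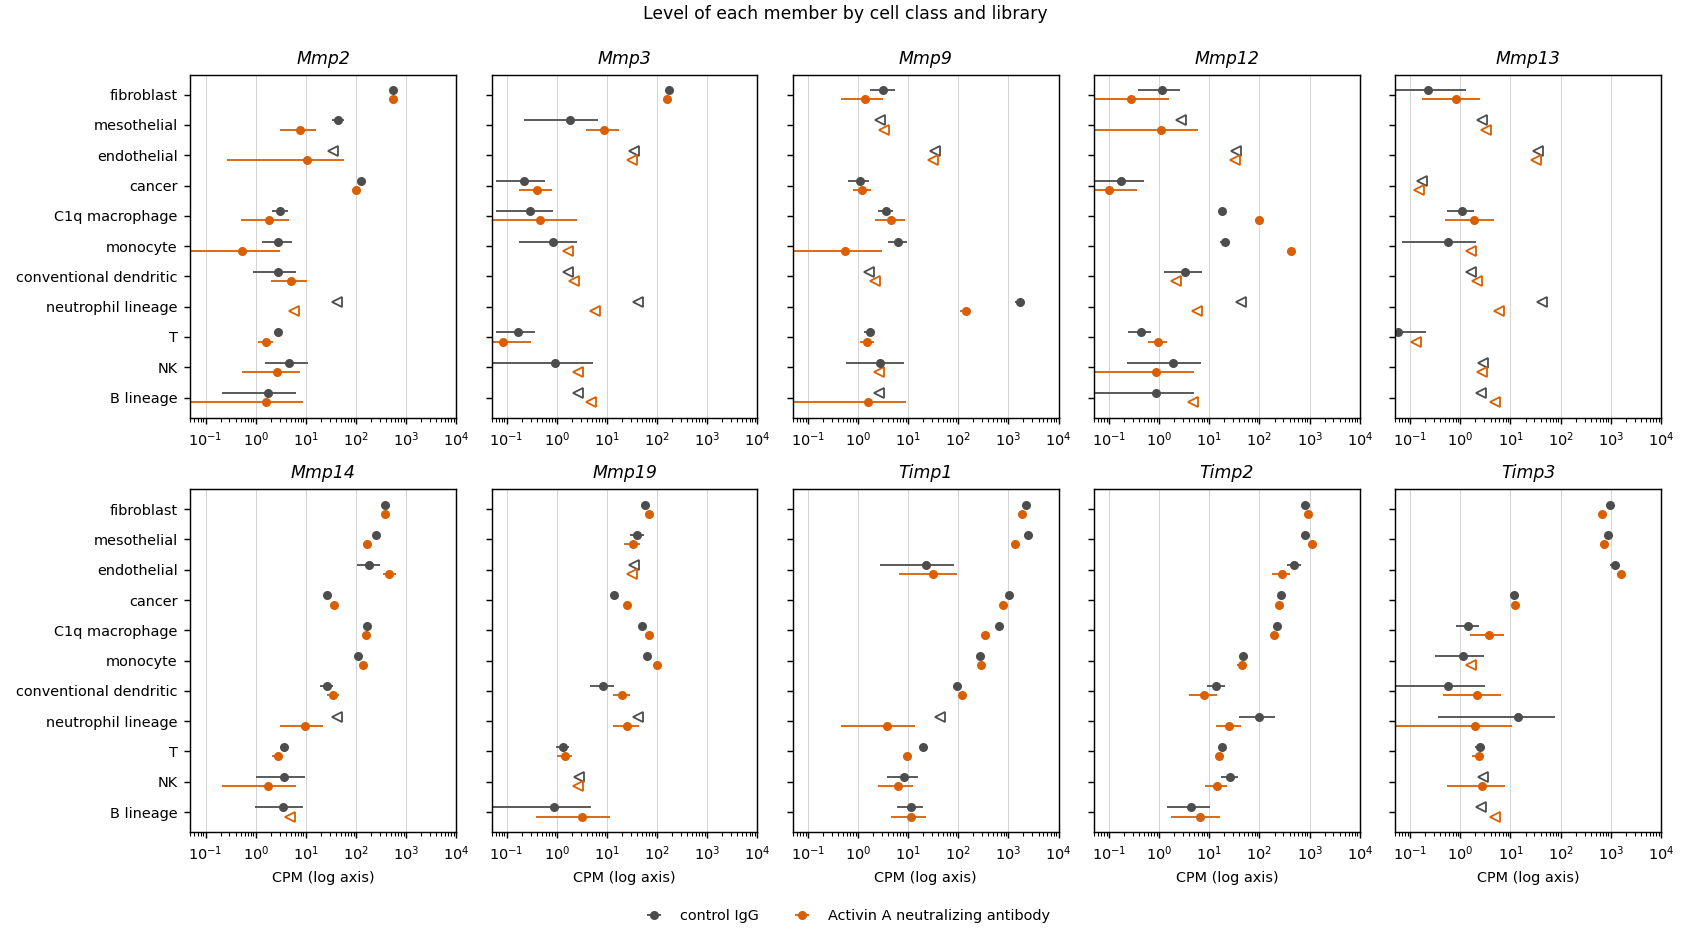
Level of each of the 10 genes (CPM, log axis) in 11 cell classes, with control IgG in gray, the Activin A neutralizing antibody in orange, and bars for exact Poisson 95% intervals. An open triangle marks 0 UMIs and is drawn at the level 3 UMIs would give, and Mmp3 sits at 176 and 161 CPM in fibroblasts and under 10 CPM elsewhere.

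Ratios between the libraries were read against all other genes of the same class. A gene was counted in a class where it had at least 20 UMIs over both libraries, which gave 46 pairs of gene and class over 7 classes, and the mark was a ratio of 2-fold. Of the 46 pairs, 5 were at least 2-fold higher in the antibody library and 3 at least 2-fold lower.

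In fibroblasts, 0 of 7 counted genes were 2-fold higher and 0 were 2-fold lower, beside 3.26% of all 12440 genes counted there higher and 3.43% lower. In cancer cells the counts were again 0 and 0 of 7, beside 2.03% and 2.62% of 14009 genes. In C1q macrophages 2 of 8 were higher (Mmp12 and Timp3) and 0 lower, beside 3.65% and 3.21% of 11662 genes. In monocytes 1 of 6 was higher (Mmp12) and 1 lower (Mmp9), beside 2.3% and 2.7% of 10021 genes. In mesothelial cells 0 of 6 were higher and 1 was lower (Mmp2), beside 3.15% and 4.89% of 8882 genes. In conventional dendritic cells 1 of 4 was higher (Mmp19) and 0 lower, beside 2.33% and 3.34% of 9111 genes. In T cells 1 of 8 was higher (Mmp12) and 1 lower (Timp1), beside 1.59% and 2.38% of 14599 genes.

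The median log2 ratio of the counted genes was -0.02 in fibroblasts, where that of all genes was 0.05. It was 0.07 in cancer cells against -0.06 for all genes, and 0.16 in C1q macrophages against 0.02. In the remaining classes it lay farther from that of all genes, with mesothelial cells at -0.45 against -0.01, conventional dendritic cells at 0.38 against -0.02, monocytes at 0.22 against 0.00 and T cells at -0.17 against 0.02. Most of the 8 pairs past 2-fold rested on few UMIs or on single cells. Timp3 in macrophages had 15 and 8 UMIs, Mmp9 in monocytes 22 and 1 with 12 in 1 cell, and Mmp12 in T cells 15 and 22 with 10 in 1 cell.

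**Figure D2:**
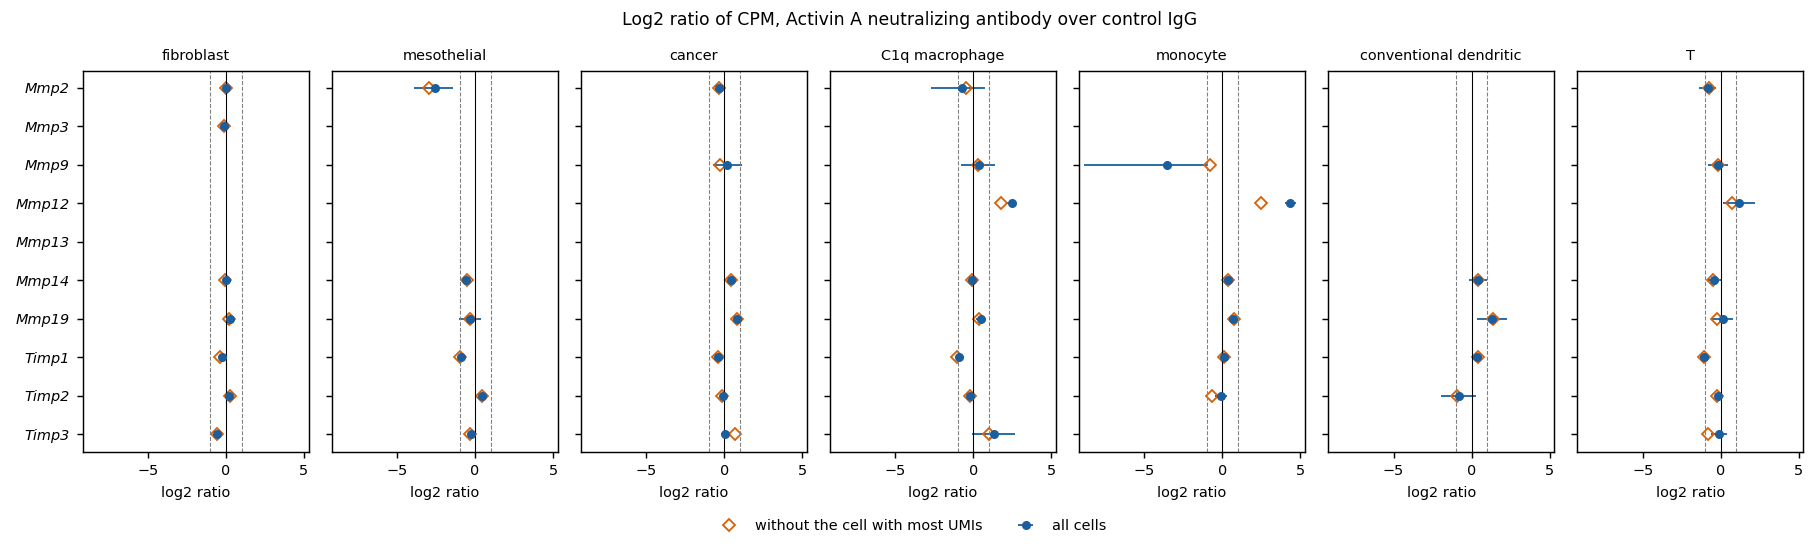
Log2 ratio of antibody over control IgG for the 46 pairs of gene and class with at least 20 UMIs, with filled circles for all cells, bars for conditional binomial 95% intervals that cover counting error only, open diamonds for the ratio without the cell with the most UMIs of the gene, and dashed lines at 2-fold. Mmp12 lies to the right of the 2-fold line in C1q macrophages at 2.46 and in monocytes at 4.35, and all 7 fibroblast ratios lie between the 2-fold lines.

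Mmp2, the gelatinase that cuts denatured collagen and basement membrane collagen, had the same summed level over the fibroblast class in both libraries. It lies at chr8:92827291-92853420 (+ strand). Its fibroblast level was 539 CPM with control IgG and 538 CPM with the antibody, a log2 ratio of 0.00 (-0.09 to 0.08). It was found in 211 of 230 and 218 of 250 fibroblasts. Cancer cells, at a lower level but with several times the RNA per cell, held as many of its UMIs: 42.9% and 47.9% of all Mmp2 UMIs lay in cancer cells and 45.6% and 47.6% in fibroblasts. In cancer cells the level was 126 and 100 CPM, a log2 ratio of -0.33 (-0.41 to -0.24). Without the cancer cells that passed a gate of another lineage, it was 118 and 82.8 CPM. Mesothelial cells, the lining of the peritoneum, had 44.7 CPM with control IgG and 7.62 CPM with the antibody, from 49 UMIs in 17 of 41 cells and 7 UMIs in 4 of 28. Without cells passing a gate of another lineage, these were 37 UMIs in 29 cells and 0 in 23. After a random thinning of every cell to 2000 UMIs, 2 of 41 and 0 of 28 mesothelial cells held Mmp2. In another random thinning to that depth, 3 of 41 and 1 of 28 held it together with Mmp14 and Timp2. C1q macrophages had 3.10 and 1.84 CPM, against 2.80 and 1.58 CPM in T cells.

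Mmp14, the membrane-anchored collagenase that activates pro-Mmp2 on the cell surface, had the widest reach of the proteases. It lies at chr14:54431612-54445364 (+ strand). Fibroblasts held 387 CPM with control IgG and 381 CPM with the antibody, a log2 ratio of -0.02 (-0.12 to 0.08). C1q macrophages held 166 and 160 CPM, a log2 ratio of -0.05 (-0.22 to 0.11). In both classes the levels of the libraries were within counting error of each other. Monocytes had 110 and 141 CPM (log2 ratio 0.35, 0.12 to 0.59) and cancer cells 26.8 and 36.8 CPM (0.46, 0.29 to 0.63), both higher in the antibody library. Without the cancer cells that passed a gate of another lineage, Mmp14 was at 24.4 CPM (21.9 to 27.1) and 28.0 CPM (25.4 to 30.8). These intervals overlap, and the log2 ratio was 0.20. Mesothelial cells had 251 and 164 CPM (-0.61, -0.91 to -0.32), lower in the antibody library. T cells had 3.73 and 2.77 CPM. Ordered by level, fibroblasts, mesothelial cells, C1q macrophages and monocytes came before cancer and conventional dendritic cells in the control IgG library. In the antibody library mesothelial cells and macrophages, at 164 and 160 CPM, did not differ beyond counting error.

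Because Timp2 is the bridge by which Mmp14 captures pro-Mmp2 at the membrane, the 3 RNAs were also counted cell by cell. Mmp14 and Timp2 were found together in 202 of 230 fibroblasts of the control IgG library and 206 of 250 of the antibody library. With Mmp2 as well, the counts were 192 and 182. In cancer cells all 3 were found in 174 of 309 and 176 of 354, at median depths of 58599 and 55646 UMIs against 15574 and 10002 in fibroblasts. At an equal depth of 2000 UMIs, the 3 RNAs were together in 24.6% (exact Clopper-Pearson 95% interval 19.1 to 30.7) and 29.0% (23.5 to 35.1) of fibroblasts. In cancer cells it was 0.324% (0.00819 to 1.79) and 0.850% (0.176 to 2.46) at that depth. C1q macrophages had Mmp14 and Timp2 together in 403 of 1259 and 63 of 328 cells, but all 3 in 10 and 0. T cells had all 3 in 4 of 5354 and 1 of 4227.

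Mmp3, stromelysin 1, cuts proteoglycans, fibronectin and laminin and activates other pro-proteases. It was the most fibroblast-restricted of the 10 genes, with 97.5% and 96.8% of its UMIs in fibroblasts. The level was 176 CPM with control IgG and 161 CPM with the antibody (log2 ratio -0.13, -0.29 to 0.03). It was unevenly spread over them, in 77 of 230 and 92 of 250 cells. The 9 highest cells of the control IgG library and the 13 highest of the antibody library held 50% of the UMIs. Free RNA had 5.26 and 9.97 CPM and T cells 0.170 and 0.0853 CPM. The neighbouring paralog Mmp10, whose reads could be confused with it, gave 4 and 1 UMIs in fibroblasts.

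Fibroblasts were divided by Acta2 and Tagln (myofibroblasts), then by Pi16 or Car3, into 3 groups, none of them set by the 10 genes. Myofibroblasts are the contractile, collagen-rich fibroblasts of wounds and tumors. The myofibroblast gate took 60 cells in the control IgG library and 17 in the antibody library, the Pi16 or Car3 gate 73 and 106, and 97 and 127 remained. These numbers restate the levels of the gating genes, and are given because myofibroblasts held 41.4% of the fibroblast UMIs in the control IgG library and 12.4% in the antibody library. Of the 60 and 17 myofibroblasts, 28 and 2 also passed a gate of another lineage. The genes differed in the group where they were highest. Mmp2 was highest in Pi16 or Car3 fibroblasts, at 900 and 871 CPM against 444 and 337 CPM in myofibroblasts. Timp2 followed the same order, with 1209 and 1298 CPM against 585 and 584 CPM.

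Timp1 and Timp3 had the reverse order. Timp1 was at 4041 and 5442 CPM in myofibroblasts, 1305 and 1866 CPM in the remaining fibroblasts, and 534 and 445 CPM in Pi16 or Car3 fibroblasts. Timp3 was at 1774 and 1754 CPM, 449 and 598 CPM, and 312 and 316 CPM in the same groups. So both libraries ranked the 3 groups alike for these inhibitors. One antibody myofibroblast held 812 of the 2442 Timp1 UMIs, and without the highest cell of each library the myofibroblast levels were 3847 and 3969 CPM. Mmp14 was at 459 and 470 CPM in myofibroblasts and 432 and 503 CPM in Pi16 or Car3 fibroblasts. Its remaining level was 285 and 304 CPM.

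**Figure D3:**
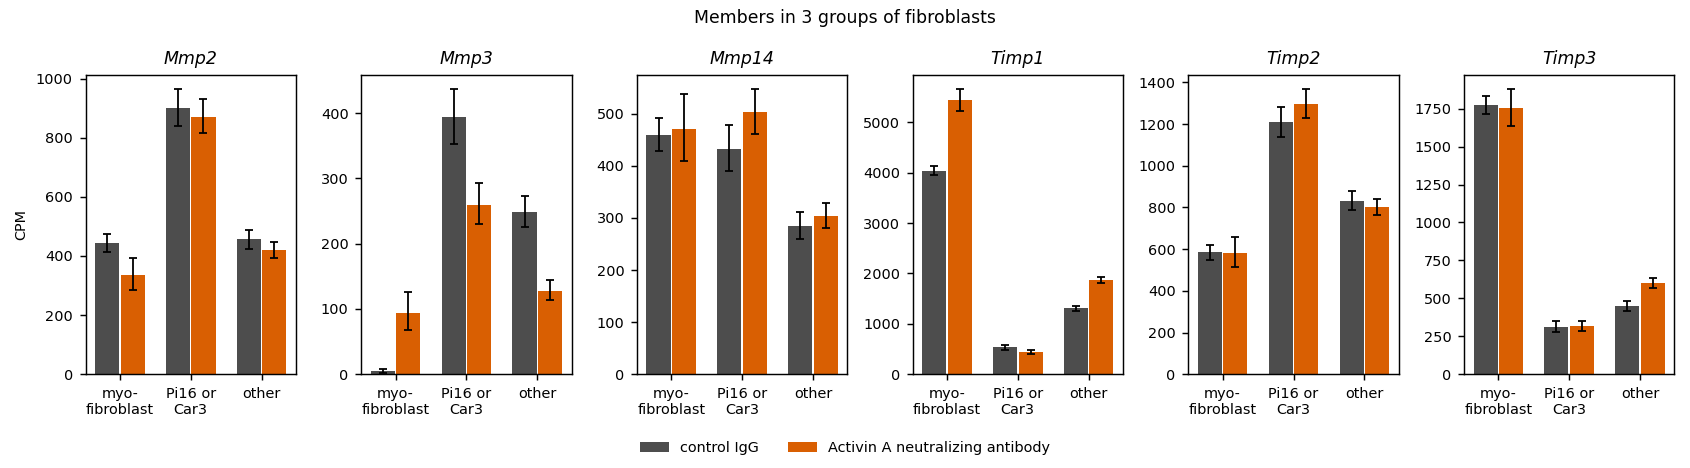
Level (CPM, each panel with its own linear axis from 0) of Mmp2, Mmp3, Mmp14, Timp1, Timp2 and Timp3 in myofibroblasts, Pi16 or Car3 fibroblasts and the remaining fibroblasts, with control IgG in gray, the antibody in orange and exact Poisson 95% intervals as error bars. Timp1 and Timp3 are highest in myofibroblasts (Timp1 4041 and 5442 CPM), Mmp2 and Timp2 in Pi16 or Car3 fibroblasts (Mmp2 900 and 871 CPM).

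Within the 2 larger groups, Mmp3 differed more between the libraries than Mmp2 and Mmp14. In Pi16 or Car3 fibroblasts it was 393 CPM with control IgG and 260 CPM with the antibody, a log2 ratio of -0.60 (-0.84 to -0.36). In the remaining fibroblasts it was 248 and 128 CPM, a log2 ratio of -0.96 (-1.18 to -0.74). Both levels were lower in the antibody library by more than counting error, but they rested on few cells. Of the Mmp3 UMIs, 50% lay in 4 of 73 and 5 of 106 Pi16 or Car3 cells. In the remaining fibroblasts they lay in 5 of 97 and 8 of 127. The share of cells with a UMI at equal depth was closer, at 27.4% and 25.5% of Pi16 or Car3 cells and 27.4% and 23.2% of the remaining cells. The log2 ratios of these shares, -0.11 (-0.99 to 0.81) and -0.24 (-1.05 to 0.58), were within counting error. In myofibroblasts Mmp3 had 8 UMIs among 60 control IgG cells, while 42 UMIs among 17 antibody cells came with 27 in 1 cell.

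For the whole fibroblast class, Timp1 and Timp3 were lower in the antibody library. Timp1 had a log2 ratio of -0.26 (-0.31 to -0.22). Timp3 went from 971 to 661 CPM, a log2 ratio of -0.56 (-0.63 to -0.48). Both values moved with the makeup of the class. With the group mix of the antibody library set to that of the control IgG library, an alternative added after the data were seen, the Timp1 ratio was 0.42 and the Timp3 ratio 0.07. The ratios of the other counted genes were then -0.18 for Mmp2, -0.33 for Mmp3, 0.09 for Mmp14, 0.09 for Mmp19 and 0.01 for Timp2. The Timp1 ratio of 0.42 gives 17 antibody myofibroblasts a weight of 41.4%, and 1 of those cells held 812 of their 2442 Timp1 UMIs. The mix was not set again without that cell. With cells that passed gates of another lineage removed, Timp1 was at 1874 and 1838 CPM and Timp3 at 735 and 630 CPM, ratios of -0.03 and -0.22. In bulk or summed RNA of a class, fewer cells of a group and less RNA per cell cannot be told apart.

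Timp1, the inhibitor of most secreted metalloproteinases that is also induced in wounds and inflammation, lies at chrX:20870166-20874735 (+ strand). Cancer cells held the most Timp1 UMIs, 44.1% and 59.4% of all, and 309 of 309 and 350 of 354 cells had it. Their level was 1036 CPM with control IgG and 782 CPM with the antibody, a log2 ratio of -0.41 (-0.44 to -0.37). Mesothelial cells had 2513 and 1344 CPM (-0.90, -1.001 to -0.81), with 50% of the UMIs in 5 of 41 and 5 of 28 cells. The share of mesothelial cells with Timp1 at equal depth had a log2 ratio of -0.41 (-1.32 to 0.45), within counting error. The level was lower in the antibody library in cancer cells, mesothelial cells and C1q macrophages. It was close in monocytes, at 269 and 286 CPM (log2 ratio 0.09, -0.07 to 0.25). In conventional dendritic cells it was 94.4 and 121 CPM.

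Timp2, which inhibits metalloproteinases and takes part in the activation of pro-Mmp2, lies at chr11:118301069-118355740 on the - strand. Fibroblasts had 805 CPM with control IgG and 915 CPM with the antibody, a log2 ratio of 0.19 (0.12 to 0.26) that was 0.01 with the group mix held at that of control IgG. Of the fibroblasts, 226 of 230 and 247 of 250 cells had it. It was the most evenly detected of the 10 genes in this class. Mesothelial cells, 41 and 28 in number, had 822 and 1105 CPM (0.43, 0.30 to 0.56), higher in the antibody library where the Timp1 level was lower. The share of them with Timp2 at equal depth had a log2 ratio of -0.19 (-1.04 to 0.63), within counting error and of the other sign. Cancer cells had 266 and 248 CPM (-0.10, -0.16 to -0.04) and C1q macrophages 226 and 196 CPM (-0.21, -0.36 to -0.06). T cells had 17.8 and 15.8 CPM. Cep295nl overlaps Timp2 by 10141 bases on the same strand, so reads there could be shared.

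Timp3, the inhibitor that binds to the matrix and also blocks several ADAM proteases, lies at chr10:86300372-86349506 (+ strand). Fibroblasts held 74.1% and 67.8% of its UMIs and mesothelial cells 16.8% and 19.0%. Mesothelial levels were 881 and 730 CPM (log2 ratio -0.27, -0.42 to -0.13). The few endothelial cells, 10 in the control IgG library and 2 in the antibody library, had 1200 and 1583 CPM. Cancer cells had 11.97 and 12.55 CPM, of which 94.8% and 95.9% came from 10 cells in each library. Of the 7 and 9 cancer cells with at least 5 Timp3 UMIs, 4 and 8 also passed the fibroblast gate, and without cells passing 2 gates the cancer level was 3.85 and 2.45 CPM. Timp3 and Timp1 lie within Syn3 and Syn1 on the opposite strand, which gave 62 and 42 UMIs and 19 and 8 UMIs in fibroblasts, against 4257 and 2396 UMIs of Timp3 and 10022 and 6904 of Timp1.

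In C1q macrophages, Timp1 and Mmp12 had the ratios farthest from 0 in either direction among the genes with at least 100 UMIs. Timp1 was 651 CPM with control IgG (635 to 667) and 343 CPM with the antibody (319 to 369), a log2 ratio of -0.92 (-1.03 to -0.81) that did not reach 2-fold. It was detected in 678 of 1259 and 133 of 328 macrophages. At equal depth the shares were 36.6% (33.9 to 39.3) and 23.3% (18.7 to 28.3), against 2.35% and 1.38% of T cells at median depths of 4898 and 4246 UMIs. So the level and the share of cells were both lower in the antibody library, by more than counting error.

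Macrophages fell into clusters that were made without the 10 genes, and most lay in 4 of them. Cluster 3 was led by Mt2, Folr2, Itga9 and Arg1, cluster 6 by Retnla, Lpl, Gpnmb and Lyz1, cluster 14 by Vcan and Osm, and cluster 26 by Cd5l, Prg4, Alox15 and Marco. From control IgG to antibody, cluster 3 went from 66.1% to 42.7% of macrophage UMIs, cluster 6 from 24.8% to 30.7%, cluster 14 from 4.62% to 11.8% and cluster 26 from 1.78% to 10.5%. Timp1 depended on the cluster by more than on the library. Cluster 3 had 915 CPM with control IgG and 547 CPM with the antibody, cluster 14 had 438 and 666 CPM, cluster 6 had 62.0 and 22.6 CPM, and cluster 26 had 16.3 and 13.2 CPM. It was thus lower in the antibody library in clusters 3 and 6 and higher in cluster 14. With the cluster mix held at that of control IgG, an alternative added later, the ratio was -0.66. Over all alternatives it ran from -1.47 to -0.66.

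Timp2 in macrophages was highest in cluster 26, at 839 and 673 CPM, while cluster 3 had 242 and 148 CPM and cluster 6 had 197 and 162 CPM. In cluster 14 it was 29.3 and 7.84 CPM, from 14 and 2 UMIs. Mmp14 had another order, with 187 and 211 CPM for cluster 3, 157 and 216 CPM for cluster 14, and 128 and 110 CPM for cluster 6. Cluster 26, of only 15 and 25 macrophages, gave 0 and 5 Mmp14 UMIs. The few cells of the Cd5l and Marco cluster thus held the inhibitor Timp2 with little Mmp14, while cluster 3 held both.

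**Figure D4:**
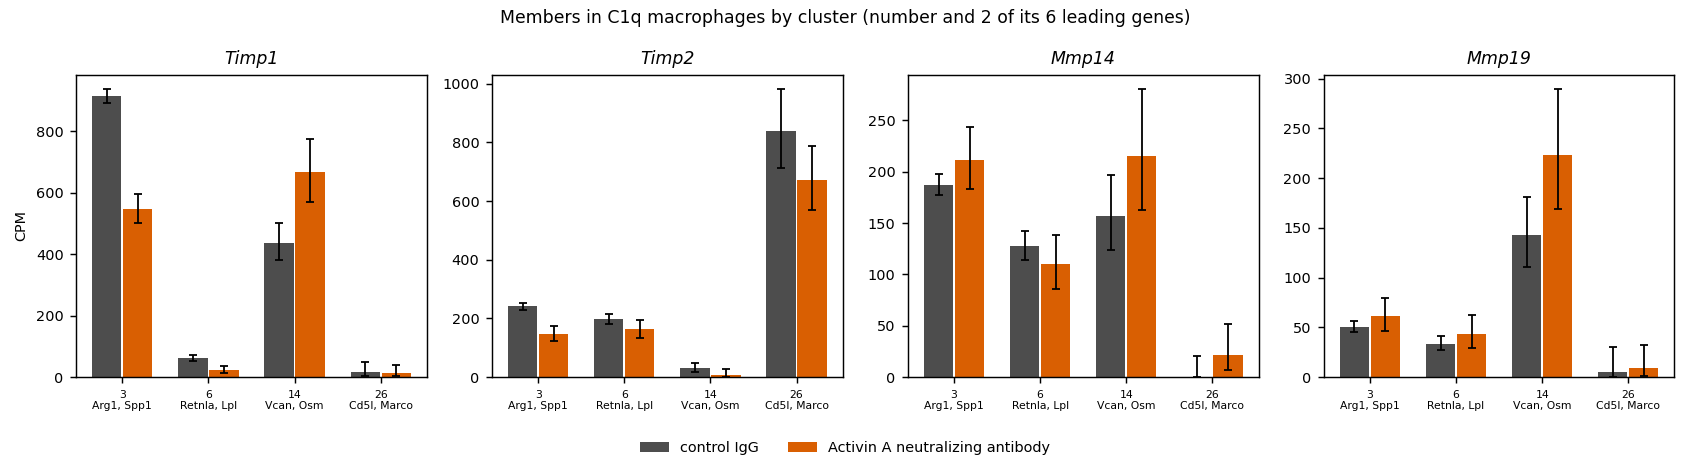
Levels (CPM, linear axes from 0) of Timp1, Timp2, Mmp14 and Mmp19 in the 4 main clusters of C1q macrophages, each named by its number and a pair of leading genes, with control IgG in gray, the antibody in orange and exact Poisson 95% intervals as error bars. Timp1 is highest in cluster 3 in the control IgG library (915 CPM), Timp2 in cluster 26 (839 and 673 CPM), and Mmp19 in cluster 14 (142 and 223 CPM).

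Mmp12, the macrophage elastase, had the largest ratio of the 46 pairs and rested on few cells. C1q macrophages had 18.2 CPM with control IgG (15.7 to 20.98) and 100.1 CPM with the antibody (87.2 to 114), a log2 ratio of 2.46 (2.17 to 2.75). The UMIs came from 32 of 1259 and 14 of 328 cells. In the control IgG library the 4 highest macrophages held 66, 20, 19 and 16 UMIs, and in the antibody library 130, 29, 28 and 10. Monocytes had 20.6 and 419 CPM, from 18 of 532 and 8 of 308 cells. One antibody cell gated as a monocyte, of 53799 UMIs, held 631 of the 769 Mmp12 UMIs of its class. It lay in cluster 6, led by Retnla, Lpl and Gpnmb. That cluster held 319 of the 840 cells gated as monocytes, beside 459 C1q macrophages. Without the highest cell of each library, monocytes were at 14.03 and 77.5 CPM (log2 ratio 2.46) and macrophages at 11.8 and 40.5 CPM (1.78).

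Single cells set the size of the ratio, then, while its direction was the same without the highest cell of each library. The highest antibody monocytes held 631, 91, 36 and 7 Mmp12 UMIs, and the highest control IgG monocytes 23, 15, 9 and 5. Removal of more than the highest cell was not run, so the direction in monocytes rests on these few cells. The shares of cells with Mmp12 at equal depth were 0.976% (0.505 to 1.70) and 2.52% (1.09 to 4.90) of macrophages, a log2 ratio of 1.37 (-0.13 to 2.78). They were 1.54% and 1.66% of monocytes, a log2 ratio of 0.11 (-1.85 to 1.90). In both classes the shares of the 2 libraries were within counting error of each other. Cells with at least 5 Mmp12 UMIs were 12 of 1791 macrophages and monocytes in the control IgG library (0.670%, 0.347 to 1.17) and 10 of 636 in the antibody library (1.57%, 0.757 to 2.87). Of those, 2 of 12 and 8 of 10 lay in cluster 6. T cells had 0.424 and 0.939 CPM and the free RNA 1.75 and 9.97 CPM, also higher in the antibody library. Mmp1b, which overlaps Mmp12 by 1261 bases on the opposite strand, gave 0 UMIs in these cells.

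**Figure D5:**
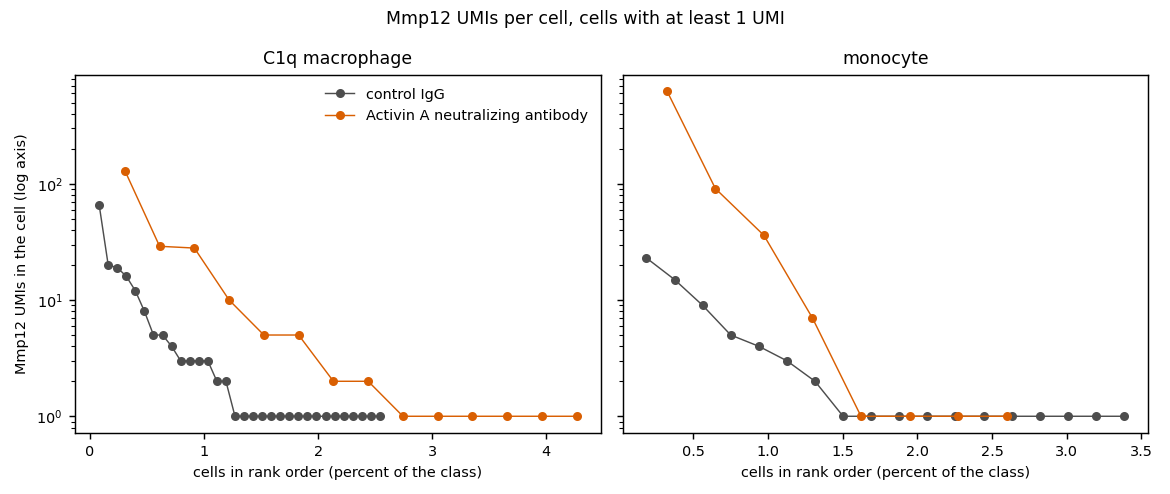
Mmp12 UMIs (log axis) of each C1q macrophage and monocyte with at least 1 Mmp12 UMI, placed by its rank from the highest as a percent of all cells of the class and library, with control IgG in gray and the antibody in orange. The lines end where the next cell has 0 UMIs, and 1 antibody monocyte stands apart with 631 UMIs.

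The 22 cells with at least 5 Mmp12 UMIs were described by the genes highest in them against the other 2405 macrophages and monocytes. Gpnmb, Lpl, Anxa1, Mfge8 and Cd36 led, of which Lpl is lipoprotein lipase and Cd36 a scavenger receptor for lipids. None of these was found in all 22 cells, with Lpl in 8, Gpnmb in 9, Anxa1 in 10 and Cd36 in 11. Mfge8 had UMIs in only 4 of the 22 cells and was not among the 10 leading genes without the single highest cell. Without that cell, Lpl was at 1030 CPM in them and 75.1 CPM in the others, Cd36 at 909 and 64.1 CPM, and Gpnmb at 308 and 13.1 CPM. These cells were chosen by Mmp12 and pooled over both libraries, so these values are a description.

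Mmp9, the gelatinase stored in neutrophil granules, lies at chr2:164940780-164955850 (+ strand). Its level in the neutrophil lineage was 1669 CPM with control IgG and 140 CPM with the antibody, from 118 UMIs in 20 cells and 73 in 36. The class was not the same in both libraries, because 24 of the 36 antibody cells and 0 of the 20 control IgG cells held Elane, Mpo or Prtn3, genes of neutrophil precursors. Without these cells, 118 and 66 UMIs gave a log2 ratio of -0.26 (-0.72 to 0.18), within counting error. The 118 UMIs lay in 18 of 20 control IgG cells. The 66 lay in 7 of 12 antibody cells, with 33 in 1 cell and 19 in another, so this ratio rests on few cells. Outside neutrophils Mmp9 was low. T cells had 1.72 and 1.54 CPM, macrophages 3.58 and 4.61 CPM, fibroblasts 3.19 and 1.38 CPM, and monocytes 6.28 and 0.545 CPM.

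Mmp19, a secreted protease that cuts basement membrane proteins, lies at chr10:128790910-128800824 (+ strand). It was higher in the antibody library in monocytes, with 62.0 and 100.3 CPM (log2 ratio 0.69, 0.40 to 0.98). It was also higher in C1q macrophages, with 49.5 and 68.7 CPM (0.47, 0.20 to 0.74), and in cancer cells, with 14.1 and 25.4 CPM (0.85, 0.63 to 1.07). Fibroblasts had 56.6 and 68.1 CPM (0.27, 0.01 to 0.53), a ratio that was 0.09 with the group mix held. In conventional dendritic cells 15 and 28 UMIs gave 8.33 and 20.3 CPM (1.29, 0.33 to 2.30). Mesothelial cells had 40.1 and 32.6 CPM (-0.30, -1.02 to 0.40), which did not differ beyond counting error. The free RNA moved with these values, at 8.92 and 18.6 CPM, and T cells were at 1.33 and 1.45 CPM. With free RNA subtracted at the share set by haemoglobin, the log2 ratio of Mmp19 was 0.70 in monocytes, 0.48 in C1q macrophages, 0.27 in fibroblasts and 0.85 in cancer cells. In T cells that share was only 0.196% of UMIs with control IgG and 0.683% with the antibody, so little was subtracted. The share set by collagens was 4.72% and 2.33%. Over the alternatives run in each class, which included that share, the ratio ran from 0.54 to 0.84 in monocytes and from 0.17 to 0.51 in C1q macrophages. It ran from 0.09 to 0.31 in fibroblasts and from 0.80 to 1.10 in cancer cells. The mix of groups or clusters was held only in fibroblasts and C1q macrophages, so the range in monocytes does not cover their cluster mix. Cluster 14, led by Vcan and Osm, had the highest Mmp19 level of the macrophage clusters, with 142 and 223 CPM from 68 and 57 UMIs. Cluster 3 had 345 and 57 Mmp19 UMIs. The antisense gene Gm47093 overlaps all of Mmp19 on the opposite strand.

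Mmp13, the collagenase that opens fibrillar collagen, was too sparse for a comparison. Its 16 UMIs in the control IgG library included 11 in C1q macrophages, and its 7 in the antibody library 4 in macrophages and 3 in 1 fibroblast. In cancer cells it had 0 UMIs in both libraries, where 3 UMIs would have given 0.169 and 0.153 CPM.

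The share of metalloproteinase UMIs among the UMIs of all 10 genes was compared between classes and libraries, since the number of cells drops out of it. It was 22.3% (21.7 to 22.8) and 24.9% (24.2 to 25.5) in fibroblasts and 11.3% and 13.6% in cancer cells. In C1q macrophages it was 21.6% (20.8 to 22.4) in the control IgG library and 38.4% (36.2 to 40.6) in the antibody library, and in monocytes 39.0% and 66.7%. In the antibody monocytes, 631 of the 1213 protease UMIs were the Mmp12 of 1 cell. In the antibody macrophages, 217 of the 732 protease UMIs were Mmp12, with 130, 29 and 28 in the highest cells. Within fibroblasts the share was 46.7% and 45.1% in Pi16 or Car3 fibroblasts and 12.97% and 10.8% in myofibroblasts. In the remaining fibroblasts it was 29.1% (27.95 to 30.2) and 22.3% (21.4 to 23.1), lower in the antibody library by more than counting error. In the neutrophil lineage it was 93.7% and 85.0%, with Mmp9 as all 118 protease UMIs of the control IgG library and 73 of the 91 of the antibody library. Timp1 decided much of these shares, which without it were 51.5% and 62.9% in C1q macrophages.

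Other genes of matrix proteolysis were counted from 6 lists in fibroblasts, cancer cells and C1q macrophages by the same rule. Of all genes counted, 3.26% were 2-fold higher and 3.43% lower in fibroblasts, 2.03% and 2.62% in cancer cells, and 3.65% and 3.21% in macrophages. No list was tested against these shares, and the genes named below are a description. Of the other metalloproteinases and Timp4, 1 of 5 counted in fibroblasts was 2-fold higher (Mmp16, 33 and 63 UMIs) and 0 lower, with 0 of 5 past 2-fold in cancer cells and 0 of 2 in macrophages. Of the plasminogen system, 0 of 6 were past 2-fold in fibroblasts and in cancer cells, and 1 of 6 was higher in macrophages. That one was Serpinb2, the plasminogen activator inhibitor 2 of macrophages, with 12.3 and 91.8 CPM (log2 ratio 2.90, 2.57 to 3.23). Serpinb2 was among the 6 leading genes of cluster 26, which held more of the antibody macrophages, and the part of the cluster mix in it was not tested.

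Of the ADAM sheddases, 0 of 7, 0 of 7 and 0 of 6 were past 2-fold in fibroblasts, cancer cells and macrophages. Of the ADAMTS proteases, 1 of 10 in fibroblasts was lower, Adamts9, which cuts versican and aggrecan, with 65.0 and 31.7 CPM (-1.04, -1.36 to -0.72). In cancer cells 1 of 8 was higher, Adamts2, from 21 and 51 UMIs, and in macrophages the 1 counted was not past 2-fold. Of the cathepsins and cystatins, 0 of 9 were past 2-fold in fibroblasts, 1 of 9 was lower in cancer cells and 1 of 9 was higher in macrophages (Ctsk, 26 and 23 UMIs). The one in cancer cells was Ctss, a lysosomal protease of myeloid cells, with 20.9 and 8.52 CPM. It stood at 4096 and 3117 CPM in macrophages. Of the other regulators, 1 of 11 was lower in fibroblasts, the broad protease inhibitor A2m, with 73.9 and 20.1 CPM (-1.88, -2.26 to -1.51). The part of the fibroblast group mix in the ratios of Adamts9 and A2m was not tested. In cancer cells 0 of 10 passed, and in macrophages Serpinh1 was higher from 68 and 30 UMIs and Htra3 lower from 119 and 8 UMIs, among 8 counted.

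The genes most like each of the 10 were ranked by Pearson's r of log2(CPM + 1) over 16 points, which were 8 classes in each of 2 libraries, among 13095 genes. The points of a library share its preparation and depth, so the values are a description. Ddr2, a collagen receptor, was most like Mmp2 (r 0.989), Adamts15 most like Mmp3 (0.993) and Enpp3 most like Timp3 (0.992). Lrp1, an endocytic receptor, was most like Mmp14 (0.983), Scamp1 most like Mmp19 (0.975), Wsb2 most like Timp1 (0.983), Nuak1 most like Timp2 (0.983) and Slfn4 most like Mmp12 (0.931). For Mmp9 the highest value was 0.757 (Hspa2), over points that did not include the neutrophil lineage. Among the 10 themselves, Timp3 went with Mmp3 (0.922) and Mmp2 (0.914), and Mmp14 with Mmp19 (0.919) and Timp1 (0.909).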

How the data were processed

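The 2 libraries, 1 per group, were analysed. The authors deposited raw UMI counts per gene and barcode, made with Cell Ranger version 4 per the file headers; the submitters' processing notes name Cell Ranger 7.0.1 and mm10. No filter on cells was applied in the deposited counts. Each gene's counts were added up by class and library and divided by the UMIs of all genes there (CPM). A class needs at least 2 or 3 of its marker genes and a minimum of their UMIs per 10000. Intervals at 95% are Poisson (exact) on CPM, Clopper-Pearson on shares and conditional binomial on ratios. Coverage of the ratio intervals was checked only on simulated Poisson sums per gene, which had no cells. That check cannot speak for UMIs clumped in few cells, where the intervals may be too narrow. Cells were thinned to 2000 UMIs for shares. Doublets were not called in the main values; cells passing gates of 2 lineages and the highest 5% of Scrublet scores were removed as alternatives. Clusters (28) came from 2000 variable genes, 30 components, 15 neighbours and Leiden resolution 1 in scanpy 1.11.5, without the 10 genes. The genes named outside the 10 are those most like each of them, the leading genes of clusters, and list genes past 2-fold, with at least 100 UMIs in the rule; those with fewer UMIs were named after their values were seen. The 10 genes and all lists were chosen with earlier results of these data known, and the gate cut-offs were set after the data were seen. Positions are from GENCODE M21 (GRCm38).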

Additional observations from a re-analysis of the deposited data

Results flagged for a closer look

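Timp1 pointed in opposite directions in classes with a small amount of it. In conventional dendritic cells the log2 ratio of antibody over control IgG was 0.35 (0.03 to 0.67), from 94.4 and 121 CPM. In T cells it was -1.09 (-1.31 to -0.86), from 19.8 and 9.34 CPM. The difference between the classes was not tested, since each group is 1 library. The levels of both classes lay below that of the free RNA, at 331 and 359 CPM. The free RNA share of T cell UMIs set by collagens was 4.72% with control IgG and 2.33% with the antibody. Set by haemoglobin it was 0.196% and 0.683%, which differ in the other direction. Over the alternatives run in T cells, which included subtraction at both shares, the ratio ran from -2.15 to -0.65. How much of the T cell ratio is free RNA was not tested. At equal depth the log2 ratio of the share of cells with Timp1 was 0.43 (-0.44 to 1.31) in conventional dendritic cells, within counting error. It was -0.77 (-1.25 to -0.30) in T cells. Timp1 was found in 316 of 5354 and 147 of 4227 T cells. With T cells passing a gate of another lineage removed, the levels were 10.3 and 5.89 CPM, a log2 ratio of -0.80.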

How the results depend on the processing

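No paired analysis was possible because a single library stands for each group, and none could be left out in turn. The 5 pairs that were 2-fold higher became 1 when classes were set by the majority of each cluster and 2 with at least 50 UMIs. The 3 that were 2-fold lower became 5 with free RNA subtracted at the share set by haemoglobin, 5 without cells passing gates of 2 lineages, 9 at 1.5-fold, and 6 with the free RNA share set by collagens, added after the data were seen. The share of all genes past the mark is not given for these settings. These counts thus describe the pairs only and cannot be read against a background. No log2 ratio of levels past 2-fold changed its sign under the alternatives run. Thinned to 1000 UMIs, the log2 ratio of the share of T cells with Mmp12 turned from 1.37 to -0.24 and that with Mmp14 from -1.22 to 0.17. Without Timp1, the share of metalloproteinase UMIs was 39.6% and 42.2% in fibroblasts, 16.5% and 10.5% in mesothelial cells, 37.7% and 38.7% in cancer cells, 51.5% and 62.9% in C1q macrophages, and 80.7% and 93.7% in monocytes. The Mmp9 ratio in monocytes was -0.77 without the highest cells, and that of Mmp12 1.97 with gates at 2 times the cut-offs. The causes were not tested.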

Other observations

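The 191 and 167 cells that passed no gate held 3062 and 1073 UMIs of the 10 genes, of which 17.6% and 20.04% were of metalloproteinases. Skeletal muscle cells, 20 and 9 in number, had 5 and 2 UMIs of Timp1. In mature dendritic cells Timp1 had 31 UMIs in the control IgG library, 23 of them in 1 cell, and 5 in the antibody library.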
